A study of Homo sapiens with 6 samples.

Results

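The 200 genes described here had the largest shares of newly synthesized RNA in MOLM-13 cells, an established human acute myeloid leukaemia cell line, under the DMSO control. They were selected on the counts themselves. All reads and T > C reads were summed per gene over its 3′ UTR entries and over the 3 DMSO libraries, genes with at least 300 summed reads were kept, and the 200 genes with the highest ratio of T > C reads to all reads were taken. Of 25420 genes in the deposited tables, 7248 had enough reads, so that the 200 genes are 2.76% of those ranked. The reference annotation names 193 of them as protein coding, 5 as long noncoding RNAs (SNHG1, SNHG12, SNHG19, THAP9-AS1 and MIR155HG), 1 as a pseudogene (CCT6P3), and gives no biotype for GRPEL2. MOLM-13 cells received 10 µM C646, an inhibitor of the lysine acetyltransferases CBP and p300, or its vehicle DMSO for 1 h and then 100 µM 4-thiouridine (4sU) for a further 1 h before harvest, with 3 replicates per group. Both groups were labelled with 4sU, and no genotype differs between them. Nothing in the sample descriptions says that the replicates are separate cultures, so the p-values measure the spread between these libraries, which may be technical.

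In SLAM-seq, cells build 4sU into the RNA they make, and alkylation turns each incorporated 4sU into a base that the sequencer reports as C. A read with at least 1 such conversion (a T > C read) is counted as new RNA, and the share of T > C reads among all reads of a gene (the T > C share) shows how much of its RNA pool was renewed during the label. The share is high where a transcript is made and degraded fast, because little older RNA remains in the pool. Messages of this kind are typical of transcription factors, growth-factor response genes and feedback inhibitors of signalling, whose output has to follow a signal closely. Stable messages are typical of ribosomal proteins and metabolic enzymes. Many short-lived messages carry AU-rich elements in the 3′ UTR, where proteins of the ZFP36 family bind and recruit the enzymes that remove the poly(A) tail. CBP and p300 acetylate histones at enhancers and promoters and act as coactivators of transcription.

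The libraries held 7252597 to 10225448 reads on 3′ UTRs, of which 477824 to 833410 were T > C reads. The library-wide T > C share was 8.79% (SD 0.0637, n = 3) in DMSO, against 6.48% (SD 0.203, n = 3) with C646. Of 13 myeloid marker genes, 12 had a mean of at least 1 CPM (reads scaled to 1e6 per library), and their summed level was 3888 to 4331 CPM per library, of which LYZ alone gave 2623 to 3138 CPM. CD14, a marker of mature monocytes, was at or near 0. Of 12 markers of other cell types, 5 had a mean of at least 1 CPM, with a summed level of 101 to 168 CPM, most of it PECAM1, and CD3E, HBB and ALB were at 0 in every library. The 200 genes had 300 to 9148 summed DMSO reads each, with a median of 620, against a median of 1144 for all ranked genes. With these counts, the 95% Wilson interval of 1 gene's share in 1 library spanned 12.7 percentage points at the median in DMSO, from 2.68 to 23.4, and 11.8 points in C646, from 1.82 to 34.3. PCR copies are counted as separate reads, so that such intervals cover counting error only. No library without 4sU was analysed here, and the shares were not corrected for conversions that arise without label.

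The 3′ UTR sequences of these messages are shown by the AU-rich sites of the 8 genes with the highest DMSO share whose most-read 3′ UTR held the nonamer TTATTTATT. Each is a stretch of 30 bases of GRCh38, written 5′ to 3′ on the strand of the transcript, with every ATTTA pentamer in capitals:

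CISH (chr3:50607093-50607122, minus strand): tatacactATTTATTTATTTAttctccttg

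ZFP36L2 (chr2:43223447-43223476, minus strand): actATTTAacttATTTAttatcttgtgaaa

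RGS16 (chr1:182598718-182598747, minus strand): gtttaaatATTTATTTAttgtgacaaatgg

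TNFAIP3 (chr6:137882298-137882327, plus strand): gtaattcactttATTTAttttattacaaac

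PMAIP1 (chr18:59903961-59903990, plus strand): aggaataattttATTTAttttgcctATTTA

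TBCC (chr6:42744603-42744632, minus strand): cgccagggctttATTTATTTAtttttacca

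B3GNT2 (chr2:62224383-62224412, plus strand): gcctgtgtttttATTTAttgttcagatcaa

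PPP1R3D (chr20:59938636-59938665, minus strand): aacatagctgttATTTAttattgtgatgtt

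In CISH, 3 pentamers overlap in 1 run, and the site in ZFP36L2 lies in the message of a protein that itself binds such elements. The 3′ UTRs of CISH, RGS16 and TBCC each held 2 copies of the nonamer and those of the other 5 genes 1 copy.

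The DMSO share of the 200 genes ran from 46.4% to 86.7%, with a median of 54.9%, where all ranked genes had a median of 10.9%. It was over 50% in 146 genes and over 70% in 31. These shares chose the genes and are given as a description. Just inside the limit lay ZNF264 at 46.4%, JADE1 at 46.4% and PLAUR at 46.4%, and just outside it FNDC3B at 46.3%, MIDN at 46.2% and RBM7 at 46.1%, so that the last ranks differ by far less than the counting error. Together the 200 genes held 0.836% of all DMSO reads (SD 0.0320, n = 3) but 5.56% of the T > C reads (SD 0.174). In C646 the same genes held 0.911% of all reads (SD 0.0493, n = 3) and 5.26% of the T > C reads (SD 0.259). Counted per base instead of per read, conversions were found at a median of 4.07% of the covered T bases of these genes in DMSO, against 0.726% over all ranked genes. A T > C read carried a median of 2.58 conversions in these genes and 2.04 over all ranked genes.

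The highest share was that of DUSP2 (chromosome 2, 96143169 to 96143822, a phosphatase that switches off MAP kinases in the nucleus), with 84.7%, 90.6% and 85.8% in the 3 DMSO libraries. FBXO5 (chromosome 6, 152970523 to 152971162), the inhibitor of the anaphase-promoting complex also known as EMI1, followed at 88.3%, 82.3% and 86.1%. PLAU, the urokinase plasminogen activator (chromosome 10, 73916566 to 73917500), had 78.7%, 92.9% and 89.3%, and DMSO replicate 1 was its lowest library. MYC, the growth-promoting transcription factor, had 84.01%, 85.7% and 83.02%, the narrowest range among these 4 genes. The JAK-STAT feedback inhibitor CISH (chromosome 3, 50606454 to 50607606) had 78.2%, 83.3% and 80.7%. The ubiquitin ligase gene MYLIP had 82.1%, 78.7% and 77.3%. The cell cycle inhibitor CDKN1B (p27) had 81.8%, 73.03% and 79.9%. The growth factor HBEGF had 80.2%, 79.00% and 74.3%. The mRNA decay factor ZFP36L2 (chromosome 2, 43222402 to 43224318), with 2498 to 3807 reads per DMSO library the most deeply covered of the 20 highest genes, had 76.9%, 75.9% and 76.5%. The inhibitor of NF-kB NFKBIA had 76.9%, 77.2% and 73.4%, the AP-1 subunit JUNB 75.8%, 72.8% and 74.9%, and the splicing kinase CLK1 72.5%, 79.8% and 73.6%. For ZNF627 (83.4%, 65.8% and 79.4%) and CPEB2 (66.3%, 74.6% and 81.6%) the DMSO libraries lay more than 15 percentage points apart, so that their rank is loose. The remaining genes of the first 20 were the zinc finger genes ZNF267, ZNF92 and ZNF217 and the stress genes PPP1R15A, GADD45B and DDIT4, with summed shares of 74.2% to 81.5%.

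**Figure D1:**
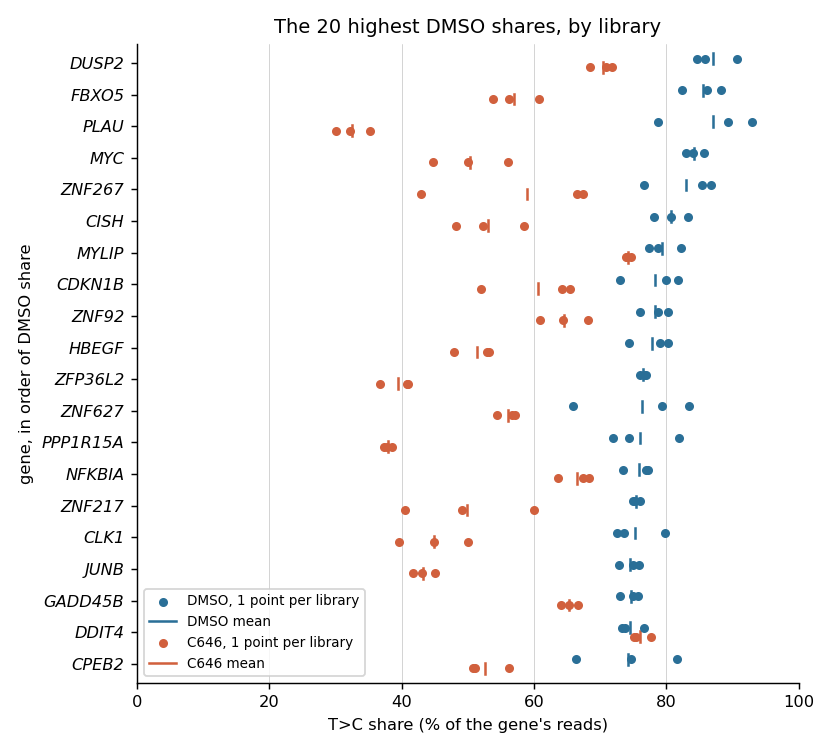
T > C share (% of the gene's reads, x axis) of the 20 genes with the highest DMSO share (y axis, in that order), with 1 point per library and a bar at the mean of the 3 DMSO (blue) or 3 C646 (red) libraries. The C646 points of PLAU, ZFP36L2, PPP1R15A and JUNB lie far to the left of the DMSO points, while those of DDIT4 overlap them.

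Grouped by function, many of the 200 genes encode regulators of transcription and signalling. Of the 200 genes, 91 (45.5%) were in at least 1 of 22 gene lists, which held 11.1% of the ranked genes. The lists favour regulators, so this share describes the lists and the genes together. Of 10 ranked immediate early and AP-1 genes, 5 were among the 200 (JUNB, IER2, IER5, FOSL2 and FOSL1), and the list had the highest median share, 46.2%. Of 21 feedback regulators of MAP kinase, JAK-STAT and G protein signalling, 8 were among the 200. They were the phosphatases DUSP2, DUSP6 and DUSP7, the SOCS-family member CISH, the G protein regulator RGS16, the pseudokinase TRIB1 and the kinases PIM1 and PIM3, and the median of the list was 38.7%. The KLF and SP transcription factors gave 3 of 8 genes (KLF11, KLF6 and KLF9), with a list median of 35.1%. Haematopoietic and homeobox transcription factors gave 7 of 40 (HOXA5, IRF1, ZEB2, GFI1, CEBPB, CEBPD and ELF1), with a median of 29.4%. Of 153 ranked genes with C2H2 zinc finger symbols (ZNF, ZSCAN, ZKSCAN and ZBTB), 27 were among the 200, more than from any other list, and the median of all 153 was 29.9%. Stress response genes gave 5 of 14 (PPP1R15A, DDIT4, TXNIP, NFE2L2 and PPP1R15B). Ubiquitin ligases and deubiquitinases gave 6 of 56, among them FBXO5, KLHL28 and KBTBD8, and cell cycle regulators gave 4 of 26 (CDKN1B, GADD45B, CCNL1 and WEE1). Smaller parts came from BCL2 family and apoptosis regulators (3 of 18, PMAIP1, SERTAD2 and BCL2L11), cytokines and their receptors (3 of 13, TNFSF9, CXCR4 and VEGFA), mRNA decay regulators (3 of 36, ZFP36L2, BTG2 and BTG3) and genes of transcription elongation and Mediator (3 of 41, MED26, CCNT2 and CCNT1). The MYC and MAX network gave 2 of 8 (MYC and MXD1), NF-kB subunits and feedback genes 2 of 10 (NFKBIA and TNFAIP3), and basic helix-loop-helix, ID and Notch target regulators 2 of 11 (ID2 and NFIL3). Histone modifiers gave 1 of 44 (BCOR) and splicing kinases and SR proteins 1 of 22 (CLK1).

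Glycolysis enzymes, oxidative phosphorylation subunits and ribosomal proteins had low shares. None of 15 glycolysis enzymes or 56 oxidative phosphorylation subunits was among the 200, and their median shares were 4.05% and 3.99%. None of 54 genes of ribosome biogenesis and RNA polymerases was among the 200 either, but their median of 12.6% lay above the 10.9% of all ranked genes. The 66 ranked cytosolic ribosomal proteins had a median of 3.04%, and RPL7 was the single one of them among the 200. The RPL7 entry covers 67 bases and had 14.6 to 18.6 CPM in DMSO, a level far below that usual for a ribosomal protein message. RPL36A, a ribosomal protein gene that the list does not hold and that was noticed after its values were seen, was among the 200 as well, at 59.5%. Noncoding RNAs gave 5 of 85. SNHG1, SNHG12 and SNHG19 are host transcripts of small nucleolar RNAs, MIR155HG is the host of miR-155, and THAP9-AS1 is an antisense transcript. SNHG1 had 67.4%, 69.8% and 71.9%, and the DMSO libraries of THAP9-AS1 ranged from 51.3% to 71.4%.

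**Figure D2:**
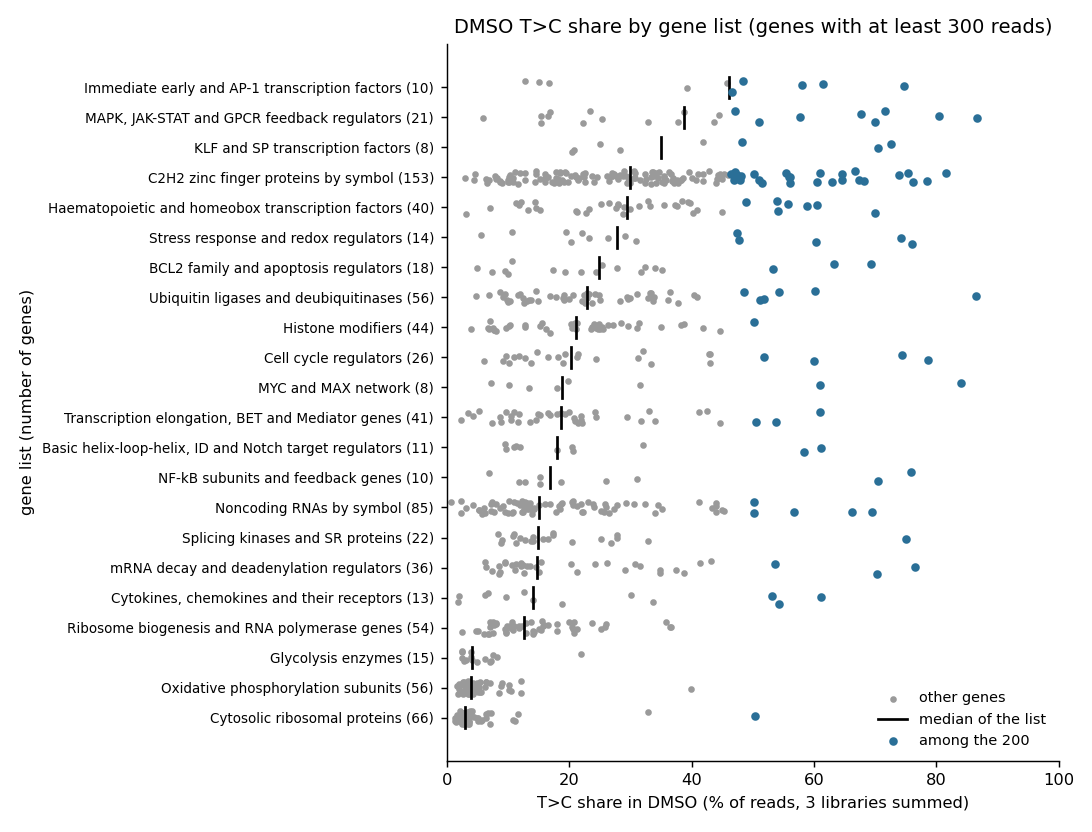
T > C share in DMSO (%, x axis, 3 libraries summed) of every ranked gene in each of 22 gene lists (y axis, with the number of genes), with the 200 genes in blue, other genes in grey and a black bar at the median of the list. Immediate early genes, feedback regulators and KLF and SP factors lie to the right, and ribosomal proteins, glycolysis enzymes and oxidative phosphorylation subunits to the left, with medians of 3.04%, 4.05% and 3.99%.

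In C646-treated cells the T > C share of these genes was lower. The summed share of the 200 genes was 58.5% (SD 0.859, n = 3) under DMSO against 37.4% (SD 0.944, n = 3) with C646, and no C646 library reached a DMSO library. In bulk samples such as these, fewer cells with a transcript and less transcript per cell cannot be told apart. The median share per library was 55.7%, 56.9% and 54.6% in DMSO and 32.2%, 33.1% and 34.6% in C646. The share was lower in C646 in 196 of the 200 genes and at least as high in DDIT4, TNFSF9, UBXN6 and EPM2AIP1. UBXN6 is among the genes with few conversions per T > C read, a limit given further on. Nearly all genes went this way, and the log2 fold change of the odds of a T > C read was below 0 in 98.5% of the 200 genes and in 92.9% of the ranked genes tested. In 168 genes (84%) all 3 C646 libraries lay below all 3 DMSO libraries, against 64.5% of all tested genes and 67.7% of the ranked ones tested. In 0 genes all lay above, against 2.16% and 2.17%. The C646 share was a median of 61.5% of the DMSO share in the 200 genes and 54.3% in all ranked genes, and it was under 50% of the DMSO share in 31.5% of the 200 genes and in 42.9% of the ranked ones. A share near its upper limit and a share near 0 are not on the same footing in such a ratio. The odds that a read is a T > C read were therefore tested within each gene in a model with a library term, which needs no scaling between libraries. edgeR's quasi-likelihood test called the odds lower in C646 (adjusted p of at most 0.01 and a log2 fold change of at least 1 in size) in 128 of the 200 genes (64%), against a background of 38.2% of 7760 tested genes. Among the ranked genes tested, 41.1% were called lower. None of the 200 was called higher, against 0.786% of tested genes and 0.754% of the ranked ones tested. The DMSO odds are the value that ranked the genes, so that these counts are tilted by the choice and are a description. In genes re-chosen on 1 DMSO library and tested without it, 73, 89 and 89 of 200 were lower, as given with that choice further on. These were 36.5%, 44.5% and 44.5%, against 27.9%, 26.3% and 28.2% of tested genes. The median log2 fold change in these odds was −1.39 for the 200 genes and −1.0 for all tested genes.

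**Figure D3:**
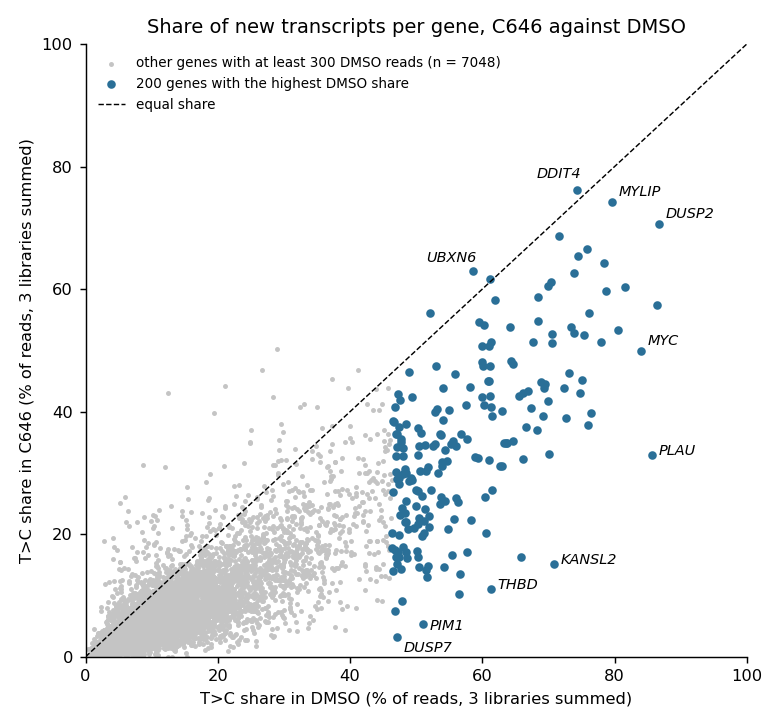
T > C share in C646 against T > C share in DMSO (both in % of reads, 3 libraries summed) for the 200 genes (blue) and the other ranked genes (grey), with the line of equal shares dashed. Nearly all of the 200 genes lie below the line, from DUSP7 and PIM1 near the bottom to MYLIP and DDIT4 near it.

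The genes spread widely under C646, from a share of 3.24% to 76.1%. DUSP7, a cytoplasmic MAP kinase phosphatase, had shares of 45.1%, 57.3% and 42.5% in DMSO and 1.89%, 6.35% and 1.68% in C646. The kinase PIM1, a target of STAT5, went from 50.1%, 53.2% and 51.2% to 7.95%, 5.8% and 3.94%. KANSL2, named after its values were seen and a subunit of the NSL complex that contains the acetyltransferase KAT8, had 69.8%, 74.03% and 69.7% in DMSO and 14.5%, 18.1% and 13.8% in C646. In these 3 genes the groups did not overlap, and DUSP7 and PIM1 had few T > C reads left, while the C646 share of KANSL2 stayed above the 5.83% median of all ranked genes. PLAU had 32.2%, 30.1% and 35.2% in C646 and showed the largest gap between groups among the 20 highest genes. MYLIP was the opposite case, with 74.1%, 74.7% and 73.9% in C646, and here the lowest DMSO and the highest C646 library lay close together without overlap. DDIT4, an inhibitor of mTORC1, had 73.7%, 76.5% and 73.3% in DMSO and 75.3%, 75.1% and 77.7% in C646, and the groups overlapped. TNFSF9, the ligand of the costimulatory receptor 4-1BB, had 58.8%, 62.8% and 63.04% in DMSO and 57.9%, 61.2% and 63.8% in C646, also with overlap.

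New RNA itself was compared as T > C reads scaled by the TMM-scaled total of all reads of the library. edgeR's quasi-likelihood test called 99 of the 200 genes (49.5%) lower in C646, against a background of 33.8% of 7760 tested genes and 37.2% of the tested genes among those ranked. It called 6 genes (3%) higher, against 2.90%. The log2 fold change had a median of −0.990 in the 200 genes and −0.84 in all tested genes. It was −0.91 in the ranked genes tested and −0.999 in ranks 201 to 500 by DMSO share. In 135 genes (67.5%) every C646 library lay below every DMSO library, against 56.6% of tested genes and 61.3% of the ranked ones tested. In 21 genes (10.5%) every C646 library lay above, against 6.29% and 4.69%. The DMSO counts both chose the genes and enter these contrasts, so that the counts are a description. Scaled by TMM on the T > C reads themselves, which moved the log2 fold changes of all genes up by a median of 0.79, 43 of the 200 genes were lower (21.5%) against a background of 8.55%, and 27 were higher (13.5%) against 8.61%. Directions of single genes below are those of the first scaling.

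Among those of the 200 genes that averaged 50 or more T > C reads a library in either group, the largest fall was that of the zinc finger gene ZNF296 (chromosome 19, 45071500 to 45071600), with T > C reads at 10.6, 12.2 and 9.2 CPM in DMSO and 1.18, 0.611 and 0.0991 CPM in C646 (log2 fold change −4.14, SE 0.437, edgeR adjusted p = 5.89e-09). THBD, which encodes the anticoagulant receptor thrombomodulin, had 11.8, 7.13 and 11.2 CPM in DMSO and 0.523, 0.733 and 0.793 CPM in C646 (log2 fold change −3.84). PLD6, a phospholipase of the mitochondrial surface, had 26.5, 33.4 and 31.1 CPM in DMSO and 1.57, 1.1 and 3.77 CPM in C646 (−3.76). In all 3 genes the highest C646 library lay far below the lowest DMSO library. The lipid transporter MFSD2A had 10.4, 6.01 and 6.9 CPM in DMSO and 0, 1.59 and 0.198 CPM in C646 (−3.71, not called by DESeq2's Wald test), and in C646 replicate 1 none of its 71 reads was a T > C read, which allows a share of up to 4.23% when 3 counts of the total are taken as the limit. PIM1 had 54.99, 31.5 and 68.7 CPM in DMSO and 4.71, 3.67 and 3.57 CPM in C646 (log2 fold change −3.70, SE 0.252, edgeR adjusted p = 5.20e-13).

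The 6 genes higher in T > C reads were IER5, DDIT4, MXD1, PPP1R15A, IRS2 and KCNN2. IER5, an immediate early gene that binds phosphatase PP2A (chromosome 1, 181089887 to 181090843), had 28.6, 41.4 and 31.3 CPM in DMSO and 345, 408 and 499.8 CPM in C646 (log2 fold change 3.63, SE 0.165, edgeR adjusted p = 2.29e-17). DDIT4 (chromosome 10, 72275189 to 72276039) had 10.3, 8.67 and 11.5 CPM in DMSO and 60.3, 81.6 and 71.4 CPM in C646 (2.80). MXD1, a repressor that competes with MYC for MAX (chromosome 2, 69938285 to 69942944), had 7.49, 7.55 and 10.96 CPM in DMSO and 41.9, 43.7 and 44.8 CPM in C646 (2.33). PPP1R15A, also known as GADD34, which directs phosphatase PP1 to the translation factor eIF2α, had 10.6, 14.5 and 11.8 CPM in DMSO and 29.95, 33.6 and 30.8 CPM in C646 (1.36). In these 4 genes every C646 library lay well above the highest DMSO library. The insulin receptor adaptor IRS2 had 49.5, 37.1 and 37.1 CPM in DMSO and 78.9, 93.96 and 125 CPM in C646 (1.27), and the potassium channel gene KCNN2 14.99, 12.2 and 16.8 CPM in DMSO and 30.6, 33.1 and 38.4 CPM in C646 (1.22). Without C646 replicate 1, the count of genes called higher was 10, and the share over all tested genes in that fit is not given here.

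Total RNA was measured by all reads, and the calls went in both directions. edgeR's quasi-likelihood test on all reads called 29 of the 200 genes lower in C646 (14.5%), against a background of 2.00% of 10851 tested genes, and 19 higher (9.5%), against 5.72%. Among the ranked genes, which are better covered than the tested genes as a whole, 2.39% were lower and 3.39% higher. Every C646 library lay below every DMSO library in 83 of the 200 genes (41.5%), against 24.0% of tested and 30.8% of ranked genes. Every one lay above in 48 (24.0%), against 23.6% of tested and 21.3% of ranked genes. The log2 fold change of all reads had a median of −0.21, against −0.02 for all tested genes. All 29 genes that were lower in all reads were also lower in T > C reads, which are part of the same counts. Another 70 genes were lower in T > C reads only, 13 were higher in all reads without a call in T > C reads, and 0 were lower in T > C reads and higher in all reads. The reads without a conversion had a median log2 ratio of 0.39 between C646 and DMSO in the 200 genes and 0.01 in all ranked genes. Choosing genes with few such reads in DMSO can raise this ratio, and conversions per T > C read also differed, with a median of 2.58 in DMSO and 2.33 in C646 for these genes. In genes re-chosen on 1 DMSO library and compared with the other DMSO libraries, as given further on, this ratio was 0.48, 0.28 and 0.40. Over all genes with at least 100 reads in the choosing library it was 0.03, 0.01 and 0.02. Beyond these values, the part of either in the result was not tested.

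**Figure D4:**
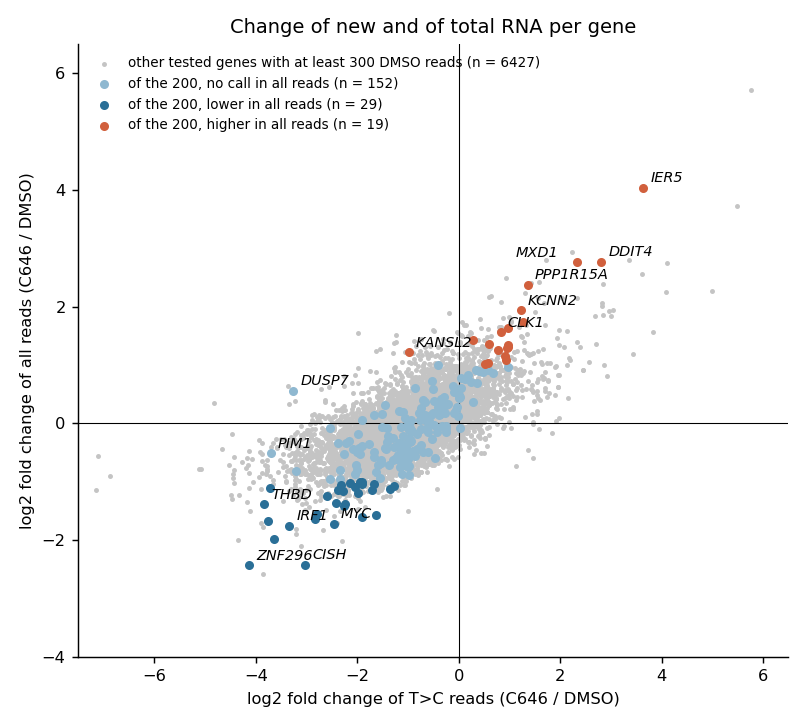
Log2 fold change (C646 / DMSO) of all reads against that of T > C reads for the 200 genes, coloured by their call in all reads (29 lower, 19 higher, 152 without call), and for the other ranked and tested genes in grey. IER5, DDIT4, MXD1 and PPP1R15A lie at the upper right, ZNF296, CISH and IRF1 at the lower left, and DUSP7, PIM1 and KANSL2 left of 0 on the x axis with little or no fall on the y axis.

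By the same naming rule, the largest falls in all reads were those of ZNF296, CISH, PHF13, IRF1 and MYC. ZNF296 had 17.7, 21.7 and 18.5 CPM in DMSO and 5.36, 3.79 and 1.78 CPM in C646 of all reads (log2 fold change −2.43, SE 0.311, edgeR adjusted p = 1.04e-04). CISH had 58.5, 56.1 and 54.8 CPM in DMSO and 11.2, 10.4 and 10.01 CPM in C646 (log2 fold change −2.42, SE 0.163, edgeR adjusted p = 1.40e-07), with no overlap and a narrow spread in both groups. PHF13, a reader of histone H3 methylated at lysine 4, had 11.4, 14.5 and 16.6 CPM in DMSO and 4.19, 2.93 and 3.67 CPM in C646 (−1.97). The interferon-response factor IRF1 had 29.8, 28.2 and 35.2 CPM in DMSO and 10.2, 12.5 and 5.25 CPM in C646 (−1.75). MYC had 109.5, 75.1 and 122 CPM in DMSO and 26.8, 30.9 and 35.1 CPM in C646 (log2 fold change −1.72, SE 0.185, edgeR adjusted p = 2.29e-05), and all C646 libraries lay below its lowest DMSO library, DMSO replicate 2. Rises in all reads were led by IER5 with 52.6, 65.2 and 55.5 CPM in DMSO and 788, 919 and 1136 CPM in C646 (log2 fold change 4.04, SE 0.173, edgeR adjusted p = 9.40e-10), followed by DDIT4 (2.77), MXD1 (2.76) and PPP1R15A (2.37). KCNN2 had 20.8, 14.4 and 25.4 CPM in DMSO and 64.2, 77.5 and 90.3 CPM in C646 (1.93). For PPP1R15A the all reads were 14.7, 17.8 and 15.8 CPM in DMSO and 77.8, 90.1 and 81.6 CPM in C646 while its share went from 75.98% to 37.8%, so that both its new and its unconverted reads were higher in C646. DDIT4 in contrast kept its share, and its new and total RNA rose by nearly the same fold.

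The counts by role that follow stand beside 37.2% lower and 1.93% higher in T > C reads, and 2.39% lower and 3.39% higher in all reads, over the ranked genes, and no list was tested against them. The immediate early and AP-1 genes went in both directions. JUNB, IER2, FOSL2 and FOSL1 fell in T > C reads and in all reads, and IER5 rose in both. IER2 had T > C reads at 29.6, 35.2 and 35.9 CPM in DMSO and 2.75, 4.64 and 6.44 CPM in C646 (log2 fold change −2.83, SE 0.242, edgeR adjusted p = 8.06e-11), with 10.3% multimapped reads. JUNB (chromosome 19, 12792816 to 12793311) had 33.7, 25.9 and 46.4 CPM in DMSO and 8.11, 9.29 and 9.22 CPM in C646 (−1.99), and FOSL2 and FOSL1 had log2 fold changes of −2.28 and −1.91. Without DMSO replicate 3, the all-read call of JUNB was lost (−0.96). Over all 10 ranked genes of this list, 7 were lower (37.2% of all ranked genes) and 1 higher in T > C reads, and 4 lower (2.39% of all ranked genes) and 1 higher in all reads. The 3 KLF genes were all lower in T > C reads (KLF11 −1.92, KLF6 −1.10, KLF9 −2.42), and KLF11 and KLF9 also in all reads. Of the 8 ranked genes of that list, 6 were lower in T > C reads and 2 in all reads. In the MYC and MAX network MYC fell and its antagonist MXD1 rose, and of its 8 ranked genes 5 were lower and 1 higher in T > C reads and 2 lower and 1 higher in all reads. MYC T > C reads were 92.03, 64.3 and 101 CPM in DMSO and 15.04, 13.8 and 17.5 CPM in C646 (log2 fold change −2.47, SE 0.186, edgeR adjusted p = 5.22e-12).

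Of the 8 feedback regulators, 6 fell in T > C reads, beside 49.5% of the 200 genes and 37.2% of the ranked ones. CISH had 45.7, 46.7 and 44.2 CPM in DMSO and 5.89, 5.01 and 5.85 CPM in C646 (log2 fold change −3.02, SE 0.20, edgeR adjusted p = 2.85e-13), and RGS16, TRIB1, PIM1, PIM3 and DUSP7 lay between −3.70 and −1.07. In all reads the calls were CISH (−2.42) and RGS16 (−1.57). PIM3 and DUSP7 had log2 fold changes of all reads of 0.32 and 0.56, neither called, beside −1.45 and −3.27 for T > C reads. DUSP2 (18.05, 18.9 and 24.5 CPM in DMSO and 11.1, 9.29 and 13.4 CPM in C646, log2 fold change −0.85) and DUSP6 (−0.26) did not reach the size of change for a call. RGS16 is an exception in its share, which was 78.98%, 65.99% and 68.2% in DMSO and 55.6%, 55% and 81.8% in C646, with overlap between the groups. Over the 21 ranked genes of this list, 11 were lower (37.2% of all ranked genes) and 0 higher in T > C reads, and 2 lower (2.39% of all ranked genes) and 0 higher in all reads.

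Among the haematopoietic transcription factors, HOXA5, IRF1, ZEB2 and GFI1 were lower in T > C reads. GFI1, a transcriptional repressor that acts in myeloid progenitors, had 55.5, 64.6 and 65.1 CPM in DMSO and 15.2, 13.1 and 17.2 CPM in C646 (log2 fold change −2.02, SE 0.178, edgeR adjusted p = 1.46e-10). HOXA5 had 16.5, 20.98 and 21.2 CPM in DMSO and 9.55, 10.8 and 6.44 CPM in C646 (−1.14) while its all reads were at a log2 fold change of −0.05. IRF1 was the single one of the 7 that was lower in all reads. CEBPB and ELF1 were higher in all reads (1.25 and 1.37) without a call in T > C reads (0.78 and 0.60), and CEBPD had no call. Over the 40 ranked genes of this list, 28 were lower and 0 higher in T > C reads, beside 37.2% and 1.93% of all ranked genes, and 7 were lower and 3 higher in all reads, beside 2.39% and 3.39%. The 27 zinc finger genes had 12 lower, 0 higher and 15 without call in T > C reads, with a median log2 fold change of −0.97, and this share of lower genes lies between the 37.2% of ranked genes and the 49.5% of the 200. In all reads 3 of them were lower, ZNF296, ZNF574 (−1.38) and ZNF114 (−1.25). Of 146 ranked zinc finger genes tested in T > C reads, 71 were lower and 1 higher, and in all reads 15 of 153 were lower and 3 higher. The 3 with the highest shares were not called in T > C reads, with log2 fold changes of −0.60 for ZNF267, −0.05 for ZNF92 and 0.03 for ZNF627, and the next, ZNF217, fell (−1.12). Under TMM on the T > C reads, ZNF267 and ZNF92 were above 0 and the call of ZNF217 was lost (−0.35), as it was without C646 replicate 1 (−0.87).

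The mRNA decay regulators ZFP36L2, BTG2 and BTG3 all fell in T > C reads. ZFP36L2 had 309, 265 and 285 CPM in DMSO and 62.4, 71.5 and 87.5 CPM in C646 (log2 fold change −1.95, SE 0.145, edgeR adjusted p = 3.73e-12), and BTG2, an antiproliferative protein that recruits the deadenylase complex, had 10.1, 8.95 and 11.1 CPM in DMSO and 3.79, 4.77 and 3.86 CPM in C646 (−1.28). In all reads ZFP36L2 (−1.01) and BTG2 (−1.07) were lower as well. The all-read call of ZFP36L2 lay at the limit of size and was lost with DESeq2's size factors and Wald test (both −1.0) and without DMSO replicate 1 (−0.95), C646 replicate 1 (−0.95) or C646 replicate 2 (−0.96). Over the 36 ranked genes of the list, 10 were lower and 1 higher in T > C reads, a smaller share of lower genes than the 37.2% of all ranked genes, and 2 were lower and 1 higher in all reads. Of the inhibitors of NF-kB, TNFAIP3 was lower in T > C reads (−1.01), and NFKBIA had 41.1, 49.2 and 48.4 CPM in DMSO and 41.2, 35.6 and 39.9 CPM in C646 (−0.25), with overlapping groups, no call and a value above 0 under TMM on the T > C reads. Over the 10 ranked genes of that list, 7 were lower in T > C reads and 0 in all reads. Both cyclins T, the partners of the elongation kinase CDK9, were among the 200 genes. CCNT1 was lower in T > C reads (−1.13) and CCNT2 was not called (−0.40). MED26, a Mediator subunit, was lower in T > C reads (−1.16), as was the BCL6 corepressor BCOR (−1.97), and none of these 4 had a call in all reads. Lower in T > C reads were 15 of 38 tested genes of elongation and Mediator and 15 of 43 histone modifiers, close to the 37.2% of ranked genes, and in all reads 1 and 0 were lower and 1 and 2 higher.

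Of 5 stress genes, PPP1R15A and DDIT4 were higher in T > C reads and in all reads, 0 were lower, and NFE2L2, TXNIP and PPP1R15B had no call. TXNIP, which binds thioredoxin, had T > C reads at 227, 212 and 251 CPM in DMSO and 153, 190.4 and 238 CPM in C646 (−0.24), with overlap. Over the 14 ranked stress genes, 3 were lower and 4 higher in T > C reads, beside 37.2% and 1.93% of all ranked genes, and 0 were lower and 4 higher in all reads. PMAIP1 (NOXA), a BH3-only inducer of apoptosis, had 26.7, 33.98 and 35.2 CPM in DMSO and 89.1, 101 and 108 CPM in C646 of all reads (log2 fold change 1.64, SE 0.155, edgeR adjusted p = 6.68e-06) and 0.97 in T > C reads, just under the size of change for a call. BCL2L11 (BIM) was at −0.77 in T > C reads and 0.05 in all reads, without a call. SERTAD2, a transcriptional coregulator on the same list, had no call either. The splicing kinase CLK1 (chromosome 2, 200853009 to 200853449) had all reads at 25.8, 26.99 and 26.1 CPM in DMSO and 65.1, 78.9 and 88.2 CPM in C646 (log2 fold change 1.56, SE 0.157, edgeR adjusted p = 1.27e-05) and a log2 fold change of T > C reads of 0.82. Of the cytokine genes, VEGFA was higher in all reads (1.34), while TNFSF9 (0.97) and the chemokine receptor CXCR4 (0.17) had no call. Cell cycle genes gave falls in T > C reads for WEE1 (−2.05), the kinase that restrains CDK1, and for CDKN1B, with 49.3, 42.8 and 51.01 CPM in DMSO and 24.2, 22.8 and 19.9 CPM in C646 (−1.10; −0.30 and no call under TMM on the T > C reads), and no call in all reads. Of the ubiquitin ligases and deubiquitinases, FBXO5 (−1.04), KBTBD8 (−1.67) and KLHL21 (−2.01) fell in T > C reads and KLHL28 rose in all reads (1.30). The call of FBXO5 was lost without DMSO replicate 1 (−0.85), DMSO replicate 3 (−0.94) or C646 replicate 1 (−0.92) and under TMM on the T > C reads (−0.25). Over the whole lists, T > C reads were lower in 17 of 25 tested cell cycle genes, 19 of 56 ubiquitin ligases and deubiquitinases, 6 of 17 BCL2 family and apoptosis genes, 2 of 11 cytokine genes, 4 of 22 splicing kinases and SR proteins and 4 of 11 basic helix-loop-helix, ID and Notch target regulators, and higher in 0 of each. In all reads the same lists had 2, 2, 2, 0, 0 and 0 lower genes and 0, 2, 1, 1, 2 and 0 higher ones. Of the basic helix-loop-helix, ID and Notch target regulators, NFIL3, a basic leucine zipper repressor placed on this list, fell in T > C reads (−1.94) and ID2 had no call (−0.99). CITED2, which was singled out after its values were seen because its protein binds CBP and p300, had T > C reads at 52.5, 33.00 and 52.6 CPM in DMSO and 38.3, 40.4 and 50.9 CPM in C646 (−0.09), all reads at 75.9, 46.6 and 78.2 CPM in DMSO and 84.5, 92.1 and 113 CPM in C646 (0.53), and no call in either. Of the 5 noncoding RNAs, SNHG12, SNHG19 and MIR155HG were lower in T > C reads, with log2 fold changes of −1.24, −1.90 and −2.08. SNHG19 was also lower in all reads. Of 71 ranked noncoding RNAs tested, 17 were lower and 2 higher in T > C reads, a smaller share of lower genes than the 37.2% of ranked genes, and 4 of 85 were lower in all reads.

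Because the DMSO libraries chose the genes, the choice was repeated on 1 DMSO library at a time, with at least 100 reads in it, and C646 was then compared with the other DMSO libraries only. The 3 choices shared 158, 149 and 158 genes with the 200. The genes chosen on DMSO replicates 1, 2 and 3 had median shares of 59.5%, 54.1% and 54.8% in the library that chose them and 57.8%, 52.4% and 55.9% in the other 2 DMSO libraries. In C646 their medians were 36.9%, 33.0% and 34.5%, and the share was lower than in the other DMSO libraries in 193, 196 and 194 of 200 genes (96.5%, 98% and 97%), near the 91.5%, 91.4% and 92.3% of all genes with at least 100 reads in the choosing library. Without DMSO replicate 1, the test on T > C reads called 78 of the 200 re-chosen genes lower (39%), against 25.7% of all tested genes. Without DMSO replicate 2 the count was 92 (46%) against 25.4%, and without DMSO replicate 3 it was 85 (42.5%) against 26.8%. Higher in T > C reads were 13 (6.5%) against 2.59%, 8 (4%) against 2.51% and 11 (5.5%) against 2.56%. In all reads, the counts of lower genes were 18 (9%) against 1.46%, 21 (10.5%) against 1.13% and 23 (11.5%) against 1.89%. Higher in all reads were 23 (11.5%) against 4.40%, 15 (7.5%) against 3.95% and 17 (8.5%) against 5.84%. The odds of a T > C read were lower in 73 genes (36.5%) against 27.9%, in 89 (44.5%) against 26.3% and in 89 (44.5%) against 28.2%. The reads without conversion had median log2 ratios of 0.48, 0.28 and 0.40 in the re-chosen genes, and of 0.03, 0.01 and 0.02 in all genes with at least 100 reads in the choosing library. Each of these 3 contrasts uses all C646 libraries and shares 1 DMSO library with each of the others, so that they are not independent of one another.

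Along the ranking by DMSO share, the share of genes lower in T > C reads went from 49.5% in the first 200 ranks to 48% in ranks 201 to 500, 41.4% in ranks 501 to 1000, 39.1% in ranks 1001 to 2000, 35.6% in ranks 2001 to 4000 and 34.7% from rank 4001 on. The DMSO T > C counts that rank the genes also enter these contrasts, so that the percentages are a description. In all reads they were 14.5%, 8.33%, 3.8%, 3.5%, 1.15% and 1.29% lower in the same order, and 9.5%, 5%, 6.2%, 3.8%, 4.1% and 1.88% higher. Median DMSO reads per gene ran from 562 in ranks 201 to 500 to 1750 in the last group, so that the slower genes were covered more deeply. The C646 share was a median of 61.5% of the DMSO share in the first group and between 51.4% and 56.0% in the others.

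**Figure D5:**
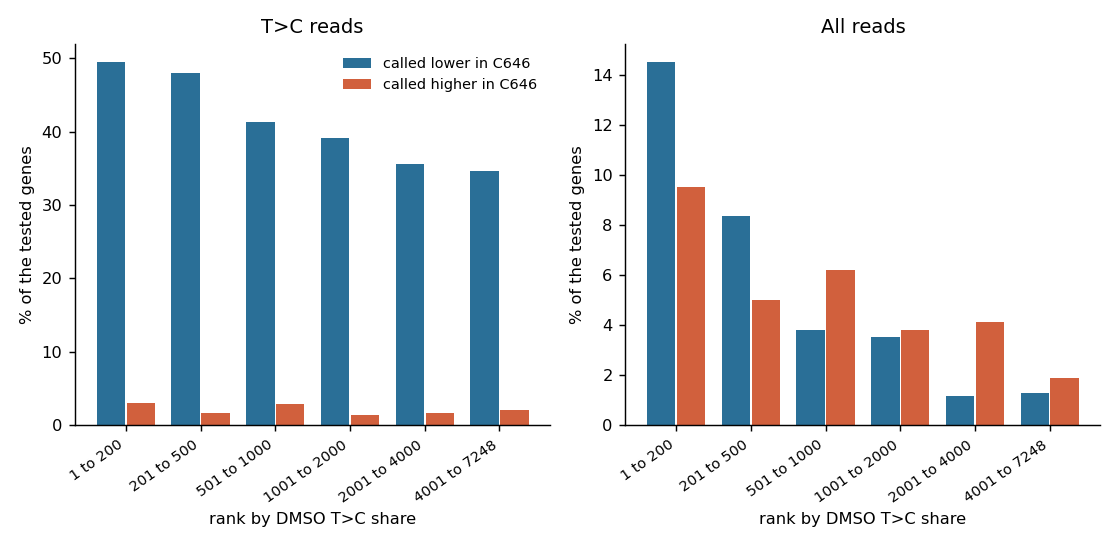
Percent of tested genes called lower (blue) or higher (red) in C646 in T > C reads (left) and in all reads (right), by rank of the DMSO T > C share (x axis, rank 1 is the highest share). The y axes start at 0 and differ in scale, and the first 200 ranks stand highest for lower and higher calls in all reads, at 14.5% and 9.5%.

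The genes of high share also had properties that the choice did not use. Their genes were compact, with a median span of 16277 bases against 28343 for ranked genes and a median of 4 exons against 9. At most 4 exons were found in 107 of the 200 genes (53.5%) and in 19.5% of the ranked genes with an exon count, and a single exon in 17 (8.5%) and 2.08%. JUNB, IER5, CEBPB and THBD are examples with a single exon. On chromosome 19, where many zinc finger genes are clustered, lay 23 genes (11.5%) against 7.23%. The most-read 3′ UTR was longer, with a median of 1542 bases against 1164, richer in T (32.4% against 29.9%) and poorer in G and C (38.1% against 42.6%). A read of these genes covered a median of 34.5 T bases, against 30.8 for ranked genes, and each T base is a chance for a conversion, whose part in the ranking was not tested beyond the next value. Ranked by conversions per covered T instead of by reads, 163 of the 200 genes were chosen again.

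The pentamer ATTTA, searched on the strand of the transcript, stood in the 3′ UTR of 172 of the 200 genes (86.0%), in 70.1% of ranked genes and in 55.5% of all genes. Per kilobase of 3′ UTR there were 2.86 pentamers in the 200 genes and 2.21 in ranked genes. The nonamer TTATTTATT, which contains the pentamer, stood in 38 genes (19%), in 7.24% of ranked genes and in 5.65% of all genes, with 0.126 and 0.0561 copies per kilobase in the 200 and in the ranked genes. In the last 200 bases of the 3′ UTR, a window of equal length for the 192 of the 200 genes that are long enough, the pentamer was found in 49.5% against 38.0% of ranked genes, and the nonamer in 4.17% against 1.18%. The base composition, which also differs, was not taken into account. The 38 genes with the nonamer and the 162 without it had median log2 fold changes of T > C reads of −1.03 and −0.99, and 21 and 78 of them were called lower. Of the genes whose sites are printed above, CISH, ZFP36L2, RGS16, TNFAIP3, TBCC and B3GNT2 were lower in T > C reads and PMAIP1 and PPP1R3D had no call there. Promoters of 300 bases (250 before to 50 after the start, RefSeq, GRCh38.p14) were given for 166 of the 200 genes. TATAAA, on either strand, was found in 21 of them (12.7%), in 5.08% of the promoters of ranked genes and in 11.95% of all 27305 promoters. The CRE octamer TGACGTCA, a site of CREB, which recruits CBP, was found on either strand in 6 (3.61%), in 3.57% of ranked genes and in 1.98% of all promoters. A match shows that these letters are present, not that a factor binds.

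Some of the 200 genes carry measured limits. Conversions are counted within the 3′ UTR entry, and in 6 genes a T > C read had fewer than 1.5 of them in DMSO. These were CCDC159 (0.0651 per T > C read, on an entry of 67 bases), ZNF7 (1.03), MRPL47 (1.10), UBXN6 (1.16), TENT5A (1.24) and CCDC174 (1.47). Whether the T > C shares of these genes measure new RNA was not tested. The shares of MRPL47 were 47.6%, 47.4% and 52.2% in DMSO and 44.5%, 48.6% and 45.97% in C646 and those of UBXN6 59.9%, 58.2% and 57.4% in DMSO and 58.95%, 66.97% and 62.4% in C646, with overlap in MRPL47 and with the median of UBXN6 higher in C646. Over 20% of the reads were multimapped in CCT6P3 (93.2%), PRAG1 (99.7%) and ID2 (21.5%), so that their values may belong in part to near-identical copies elsewhere. The 3′ UTRs of KTI12 and MIR155HG share bases with another gene's.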

How the data were processed

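SLAM-seq 3′ end libraries of 3 DMSO and 3 C646 replicates were analysed, grouped by the treatment in the sample labels. With SLAM-Dunk v0.4.1 and the GRCh38 genome, the authors made and deposited, for each of 58136 3′ UTR entries and without normalization, raw counts of reads, T > C reads, conversions and multimapped reads, and the coverage summed over T bases, a signal. The deposited CPM column was not used. The paper's comparison used reads with at least 2 conversions, whereas the deposited T > C counts rest on at least 1. The number of T bases, deposited with each entry, is 0 throughout C646 replicate 3 and was taken from the other tables.

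The genes and gene lists were chosen with earlier results of these data known. Genes to name were the 20 highest shares, the 5 largest falls and rises in T > C reads (at least 50 per library on average in 1 group) and in all reads, the 3 genes on either side of the limit, list members in order of share, and up to 2 genes whose share did not fall. Other genes (members of small counts, examples, limits) were named after their values were seen. One gene is not reported here. Printed AU-rich sites leave out genes with over 20% multimapped reads and genes on a chromosome not shown here.

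Counts were summed per gene and tested with edgeR 4.0.16 in R 4.3.3 (filterByExpr, glmQLFit, glmQLFTest, Benjamini-Hochberg over all tested genes). Library size was the TMM-scaled total of all reads. A gene was called at an adjusted p of 0.01 or less with a log2 fold change of 1 or more in size, and standard errors are the log2 fold change over the square root of F. The fits were also run on simulated counts with known changes, and the outcome is not given here. T > C CPM and all-read CPM are counts scaled to 1e6 of that library size. Log2 ratios of reads without conversion used 0.5 CPM as pseudocount. Symbols were matched for 25310 of 25420 genes, exons come from GENCODE release 44, spans and promoters from RefSeq, and places are those of the most-read 3′ UTR, whose number of T bases in GRCh38 was that deposited in 100% of genes. Alternatives were other scalings, DESeq2 1.42.0, no filter, the most-read 3′ UTR alone, other read minimums, a replicate block and each library left out. Python 3.11.15, pandas 2.3.3, numpy 2.4.6 and matplotlib 3.10.9 were used.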

Additional observations from a re-analysis of the deposited data

How the results depend on the processing

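Counts of the 200 genes kept to within 1.5 times under DESeq2's size factors, DESeq2's Wald test, no filter, the most-read 3′ UTR alone and ranking by conversions per covered T. TMM computed from T > C reads alone was the exception, with 43 genes lower and 27 higher in T > C reads. With each library left out in turn, 91 to 104 genes were lower and 7 to 10 higher in T > C reads. In all reads 21 to 24 were lower and 17 to 21 higher, and 92 to 120 were lower in the odds. The background moved as well. Without DMSO replicates 1, 2 and 3, 25.7%, 25.4% and 26.8% of tested genes were lower in T > C reads, against 33.8% with all libraries. In all reads 1.46%, 1.13% and 1.89% were lower, against 2.00%, and in the odds 27.9%, 26.3% and 28.2%, against 38.2%. For the other alternatives, apart from TMM on the T > C reads, the share over all tested genes is not given here. The choice of genes depends on the read minimum, with 91 of the 200 genes shared at a minimum of 100 summed DMSO reads and 61 at 1000.

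Of 805 values of single named genes under an alternative, 753 kept direction and call, 16 gained a call, 23 lost it and 13 changed sign, all from uncalled values. The lost calls were those of FBXO5, PLAU, CDKN1B, HBEGF, ZNF217, JADE1 and MFSD2A in T > C reads and of ZFP36L2, JUNB and MFSD2A in all reads. With TMM on the T > C reads, log2 fold changes of T > C reads became 0.19 for ZNF267, 0.54 for MYLIP, 0.73 for ZNF92, 0.54 for NFKBIA, 0.11 for ZNF264 and 0.37 for PLAUR. In T > C reads, ZNF92 was at 0.065 without C646 replicate 1 and 0.047 without C646 replicate 2, and ZNF627 at −0.0079 without DMSO replicate 3 and −0.02 without C646 replicate 3. In all reads, PLAU was at −0.024 without DMSO replicate 2, ZNF267 at 0.034 without DMSO replicate 1 and ZNF264 at −0.042 without C646 replicate 1. Over all single-library omissions, these ran from the given values up to 0.46 for PLAU, down to −0.33 for ZNF267, down to −0.28 for ZNF92, up to 0.090 for ZNF627 and up to 0.29 for ZNF264. The cause was not tested.

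With the replicate number as a block (replicate block), 102 genes were lower and 6 higher in T > C reads, 28 lower and 19 higher in all reads, and 117 lower in the odds. Same-numbered libraries had correlations of their deviations from the group means of 0.030 to 0.066 in T > C reads, where 6 of 6 libraries correlated best with their own number, and of −0.0015 to 0.23 in all reads (3 of 6), across genes. Libraries of different numbers had mean correlations of −0.023 in T > C reads and −0.064 in all reads. The labels name no shared culture or day, so the libraries were not treated as paired. Whether same-numbered libraries share a batch was not tested. Depth limits the last ranks and the C646 shares of genes with few reads.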

Other observations

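Applied to the C646 libraries, the same rule ranked 7543 genes and shared 94 genes (47.0%) with the 200. Of the 200 genes, 172 had at least 300 summed C646 reads, and the rest could not have been chosen in C646. The lowest share among its 200 genes was 33.6%. Of the 106 other genes, 64 had fewer than 300 summed DMSO reads and could not have been chosen in DMSO. They included known short-lived messages. The highest was ZFP36, a decay factor that binds AU-rich elements, with shares of 94.7%, 98.6% and 92% in DMSO and 96.5%, 91.6% and 92% in C646 and 71 to 94 reads per DMSO library. DUSP1, a MAP kinase phosphatase, had shares of 100.0%, 100.0% and 100.0% in DMSO and 87.1%, 84.6% and 87.6% in C646, on 10 to 16 reads per DMSO library, with T > C reads at 1.58, 1.4 and 2.16 CPM in DMSO and 44.9, 34.9 and 36.6 CPM in C646. Further genes with high C646 shares were the cytokine signalling inhibitor SOCS3 at 81.9%, the transcriptional repressor PRDM1 at 76.8%, the chemokine CXCL8 at 76.6%, the kinase PLK2 at 71.4%, the coagulation initiator F3 at 69.3% and the arrestin-domain gene ARRDC3 at 65.4%. All 8 had fewer than 300 summed DMSO reads and reached the read minimum only in C646, a filter that favours genes with more reads there. Their shares and levels are therefore a description, with no test.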
